A study of Mus musculus with 16 samples.

Results

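The 8 hippocampal libraries from mice that carry the Dp16 duplication were set against the 8 libraries from mice that do not carry it. All 16 libraries of the series thus entered 1 comparison, and they were assigned by their labelled genotype alone. The carriers were Dp16 mice (n = 4), which carry the duplication only, and 5xFAD-Dp16 mice (n = 4), which carry both the duplication and the 5xFAD transgenes. The non-carriers were wild-type C57BL/6J mice (WT, n = 4) and 5xFAD mice (n = 4), which carry the transgenes only. All mice were 9 months old, and each group had 2 females and 2 males. The labels name a strain for WT alone, so the background of the other groups is not known here. Dp16 mice carry an extra copy of the stretch of mouse chromosome 16 from Lipi to Zbtb21 in every cell, and hence 3 copies of its genes. The 5xFAD transgenes carry familial Alzheimer mutations and are driven in neurons by Thy1 promoter sequences.

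Human chromosome 21 corresponds to parts of mouse chromosomes 16, 17 and 10, and only the chromosome 16 part is duplicated in Dp16. An extra copy of a gene usually raises its RNA in rough proportion to copy number. The segment encodes several regulators that act on genes elsewhere, among them the kinase Dyrk1a, the calcineurin inhibitor Rcan1, interferon receptor subunits and transcription factors such as Runx1, Ets2 and Bach1. The duplication itself leaves genes outside the segment at their usual copy number, but copy number was not measured here.

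RNA was read from polyadenylated transcripts and counted per gene, with 16922937 to 25308693 counts per library. A gene's level is given as CPM, counts scaled by library size and TMM factors, and its effect as the log2 fold of carriers over non-carriers with its standard error (SE), adjusted for the transgenes and for sex. Genes count as called where edgeR's quasi-likelihood test gave an adjusted p below 0.05. Markers of hippocampal neurons were present in every library: Prox1 of dentate granule cells ranged from 78.0 to 140.9 CPM in carriers and from 65.8 to 136 CPM in non-carriers, and Fibcd1 of CA1 pyramidal cells from 103 to 224 CPM in carriers and from 35.8 to 194 CPM in non-carriers. Markers of neighbouring tissue were present too. Ttr, which marks the choroid plexus, ranged from 15.7 to 2683 CPM in carriers and from 30.5 to 7432 CPM in non-carriers. Tcf7l2, which marks the thalamus, ranged from 6.25 to 141.46 CPM in carriers and from 7.56 to 100.05 CPM in non-carriers. In such bulk tissue, fewer cells of a type and less RNA per cell cannot be told apart.

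Of 17132 genes tested, 101 were called (0.59%), of which 77 were higher (0.449%) and 24 lower (0.14%) in carriers. The segment held 58 of them, 55.2% of the 105 segment genes tested, and all were higher. Outside the segment, 43 genes were called, 0.253% of the 17027 tested there. Of these, 19 rose (0.112%) and 24 fell (0.141%) in carriers, and they lay on 19 chromosomes. The effects outside were mostly small: their median absolute log2 fold was 0.43, and 7 rose and 8 fell past 1.5-fold. The 8 carriers lay entirely above or entirely below the 8 non-carriers for 12 of the 43 genes, 5 higher and 7 lower. Over all genes tested outside the segment, such a separation was seen for 17 (0.0998%), 8 higher (0.047%) and 9 lower (0.0529%), and for 44 (41.9%) of the segment genes.

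The calls outside the segment differed in how firmly they held, so each is described with that in view. When each library was left out in turn, 15 of the 43 genes were called in all 16 fits. Among those 15, the named genes that rose were a, Slc5a5, Nckipsd, Stoml3 and Trim3, and the named genes that fell were Cbs, Tbx1, Pik3r3, Plk5, Emp2, Tmem86a, Mia2 and Btg1. A second set of fits dealt with neighbouring tissue: a term for the choroid plexus score was added, or a term for the thalamus score, or the 6 libraries of highest thalamus score were left out. Under all 3 of these, 7 genes were called, and a, Slc5a5, Cbs, Tbx1, Pik3r3 and the predicted gene Gm10605 passed both sets. Without the Dp16 library 14 the number of calls outside the segment was 124, without the 5xFAD library 10 it was 123, and without the Dp16 library 12 it was 19. Without the WT library 2, 16 genes were higher and 50 lower there, and in the other 12 fits 9 to 22 were higher and 10 to 29 lower. With the choroid plexus term 8 of the 43 genes were called, and the part of choroid plexus tissue in the other calls was not tested further. Segment calls with that term numbered 46, against 58 without it, while the segment median log2 fold was 0.55, against 0.51. Without the 6 libraries of high thalamus score, which leaves 1 5xFAD library, 20 genes were called higher (0.111%) and 26 lower (0.145%) outside the segment. Of these 46 genes, 32 were not among the 43, and the 14 that were are a, Slc5a5, Hmgcs1, C4b, Kndc1, Gm48678, Cbs, Tbx1, Pik3r3, Btg1, Rec8, Grin2c, Rfx5 and Gm10605.

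**Figure D1:**
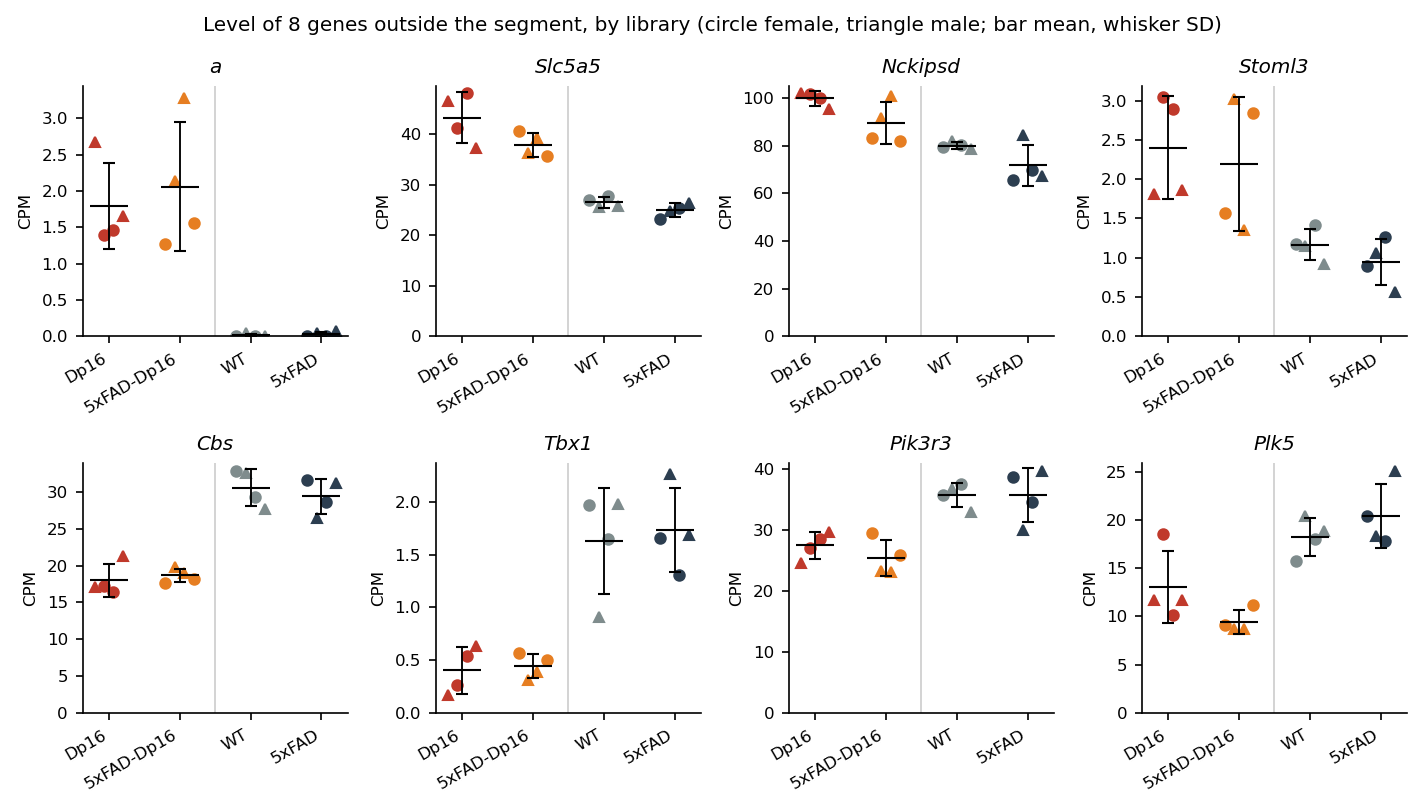
CPM of 8 genes outside the segment in each of the 16 libraries, with Dp16 and 5xFAD-Dp16 left of the line and WT and 5xFAD right of it; each panel has its own axis from 0. For a, Slc5a5, Cbs, Tbx1 and Pik3r3 no carrier overlaps a non-carrier, while single libraries overlap for Nckipsd, Stoml3 and Plk5.

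The promoter windows of 4 of these genes are shown because these genes passed both sets of fits. They are taken from RefSeq on GRCm38.p6, run from 250 bases before to 50 bases after an annotated start, and read 5′ to 3′ on the gene's strand. The single capital marks the annotated first base, and a run of 6 capitals marks a match to TGTGGT on either strand, the core bound by Runx1 and its relatives.

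a, which rose, chr2:155013320-155013619, plus strand: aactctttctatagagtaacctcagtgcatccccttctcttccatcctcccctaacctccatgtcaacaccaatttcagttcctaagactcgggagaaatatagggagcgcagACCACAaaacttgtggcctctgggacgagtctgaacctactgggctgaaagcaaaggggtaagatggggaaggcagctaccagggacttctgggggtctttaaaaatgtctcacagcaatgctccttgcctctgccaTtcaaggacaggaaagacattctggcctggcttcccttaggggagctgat

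Slc5a5, which rose, chr8:70892708-70893007, minus strand: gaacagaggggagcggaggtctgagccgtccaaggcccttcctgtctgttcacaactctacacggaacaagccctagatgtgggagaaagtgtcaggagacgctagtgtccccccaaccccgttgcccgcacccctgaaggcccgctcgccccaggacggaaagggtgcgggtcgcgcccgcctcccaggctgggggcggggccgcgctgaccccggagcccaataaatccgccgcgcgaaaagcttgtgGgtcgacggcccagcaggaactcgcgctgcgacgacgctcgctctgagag

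Cbs, which fell, chr17:31637156-31637455, minus strand: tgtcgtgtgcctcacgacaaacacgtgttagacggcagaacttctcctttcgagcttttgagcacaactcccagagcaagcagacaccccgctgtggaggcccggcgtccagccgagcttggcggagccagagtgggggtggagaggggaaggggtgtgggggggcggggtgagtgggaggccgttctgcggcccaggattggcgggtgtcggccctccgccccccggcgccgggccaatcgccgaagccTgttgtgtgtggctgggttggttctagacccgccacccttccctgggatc

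Tbx1, which fell, chr16:18590622-18590921, minus strand: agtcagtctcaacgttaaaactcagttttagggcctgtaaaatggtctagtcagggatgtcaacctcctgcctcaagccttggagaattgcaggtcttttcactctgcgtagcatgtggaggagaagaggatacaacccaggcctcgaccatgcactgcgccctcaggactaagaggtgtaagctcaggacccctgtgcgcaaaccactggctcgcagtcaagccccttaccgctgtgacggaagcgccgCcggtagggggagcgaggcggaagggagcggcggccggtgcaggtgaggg

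Windows were found for 35 of the 43 genes, 47 windows in all, and were searched on both strands for motifs of transcription factors that the segment encodes or whose pathway it feeds. The Runx core TGTGGT was present in windows of 5 genes, a, Kndc1, Slc36a1, Tmem86a and 2410018L13Rik. That was 10.6% of the 47 windows, against 16.8% of all 32851 windows. The Ets motif CCGGAAGT was present in 4.26% of the 47 windows, against 3.89% of all windows, and the Bach1 and AP-1 motif TGAGTCA in 4.26% against 5.20%. The interferon response motif GAAANNGAA, where N is any base, was found in 1 gene, Ctbp2, which is 2.13% of the 47 windows against 8.56% of all. Apart from TGTGGT in a, none of the 4 motifs was found in the 4 windows printed above. A match is a description of letters and not a bound site.

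The strongest rise was in a, the agouti gene, which encodes a secreted antagonist of melanocortin receptors made in skin (a, ENSMUSG00000027596.10, chromosome 2, 154791402 to 155051012). Its 8 carrier libraries held 26 to 68 counts each, 342 in all, and the 8 non-carrier libraries held 4 counts in all, in 3 libraries. The pooled ratio was 87.2, with a 95% interval of 33.8 to 322 that covers counting error only. In CPM, carriers had a lowest, median and highest value of 1.27, 1.60 and 3.28, against 0, 0 and 0.0703 in non-carriers, so the groups did not overlap (log2 6.21 ± 0.39 SE, adjusted p = 2.03e-07). The level was low in absolute terms in both carrier groups, with 163 counts over the 4 Dp16 libraries and 179 over the 4 5xFAD-Dp16 libraries. A term for either tissue score, or both, left the log2 fold between 5.92 and 6.10. The copy number and the allele of a were not tested.

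Slc5a5, the sodium-iodide symporter (Slc5a5, ENSMUSG00000000792.2, chromosome 8, 70882889 to 70892757), had 35.6, 39.9 and 48.1 CPM in carriers, against 23.2, 25.6 and 27.7 CPM in non-carriers, as lowest, median and highest. Every carrier lay above every non-carrier. The difference was 1.57-fold (log2 0.66 ± 0.06 SE, adjusted p = 6.74e-06), and it was 0.68 in females (adjusted p = 0.0113) and 0.64 in males (adjusted p = 0.0751), each fitted alone. Without any one library its log2 fold ranged from 0.63 to 0.68.

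Stoml3, a stomatin-family membrane protein known from mechanosensation in sensory neurons, had 1.35, 2.35 and 3.05 CPM in carriers, against 0.562, 1.10 and 1.41 CPM in non-carriers. The lowest carrier lay just below the highest non-carrier, and the fold was 2.19 (log2 1.13 ± 0.21 SE, adjusted p = 0.0124). Nckipsd, which links Nck adaptors to actin assembly, was 1.247-fold higher, at 81.8 to 102 CPM in carriers and 65.3 to 84.3 CPM in non-carriers (adjusted p = 0.00803). Trim3, a ubiquitin ligase enriched in brain, rose by less, 1.17-fold, but its carriers did not overlap its non-carriers, with 109.6 to 124 CPM in carriers and 94.1 to 105 CPM in non-carriers (adjusted p = 0.0140). With a choroid plexus term, the log2 folds were 1.29 for Stoml3, 0.29 for Nckipsd and 0.20 for Trim3. The adjusted p with that term was 0.0102 for Stoml3, 0.0745 for Nckipsd and 0.120 for Trim3. When the 6 libraries of high thalamus score were left out, it was 0.104 for Stoml3, 0.0856 for Nckipsd and 0.148 for Trim3, so none of the 3 was called there. The predicted genes 2410018L13Rik and Gm48678 also rose, with log2 folds of 1.26 and 1.17.

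Cbs, cystathionine beta-synthase, which commits homocysteine to the synthesis of cysteine, fell in carriers (Cbs, ENSMUSG00000024039.15, chromosome 17, 31608894 to 31637238). Its human ortholog lies on chromosome 21, but the mouse gene lies on chromosome 17, which the duplication leaves untouched. Its lowest, median and highest values were 16.5, 17.96 and 21.3 CPM in carriers, against 26.5, 30.3 and 32.9 CPM in non-carriers, with no overlap. The fold was 0.610 (log2 -0.71 ± 0.067 SE, adjusted p = 8.74e-06). By group, Cbs averaged 18.01 ± 2.21 CPM in Dp16 and 30.6 ± 2.54 CPM in WT libraries, and 18.7 ± 0.913 CPM in 5xFAD-Dp16 and 29.5 ± 2.39 CPM in 5xFAD libraries (SD, n = 4 each). The difference between the backgrounds had an interaction p of 0.437 before adjustment. Without the 6 libraries of high thalamus score its log2 fold was -0.71, and with a choroid plexus term -0.70.

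Tbx1, a T-box transcription factor of early development (Tbx1, ENSMUSG00000009097.10, chromosome 16, 18580979 to 18590671), had the steepest fall among the stable genes, to 0.253 of the non-carrier level. Its values were 0.164, 0.445 and 0.635 CPM in carriers, against 0.912, 1.67 and 2.27 CPM in non-carriers, and no carrier reached the lowest non-carrier (log2 -1.98 ± 0.27 SE, adjusted p = 0.000548). Tbx1 shares chromosome 16 with the segment but lies at -56.96 Mb from its start. Its level was low in all libraries, so its fold is less precise than that of Cbs.

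Pik3r3, a regulatory subunit of phosphoinositide 3-kinase, had 23.02, 26.4 and 29.7 CPM in carriers, against 29.97, 36.1 and 39.7 CPM in non-carriers. The ranges did not overlap and the fold was 0.739 (log2 -0.44 ± 0.068 SE, adjusted p = 0.00264). Plk5, a polo-like kinase without a full kinase domain that is expressed in neurons, had 8.69, 10.7 and 18.6 CPM in carriers, against 15.7, 18.6 and 25.2 CPM in non-carriers (log2 -0.80 ± 0.14 SE, adjusted p = 0.0105). For Plk5 the highest carrier, a Dp16 library, lay within the non-carrier range. Without the 6 libraries of high thalamus score its log2 fold was -0.60 with an adjusted p of 0.244.

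Emp2, a small tetraspan membrane protein of epithelia, fell by 0.51 on the log2 scale, at 16.7 to 25.4 CPM in carriers and 23.6 to 37.7 CPM in non-carriers (adjusted p = 0.0115). It is the other gene called on chromosome 16 outside the segment, at -65.26 Mb from its start. Tmem86a, a lysoplasmalogenase, fell by 0.58 (adjusted p = 0.0115), and Btg1, an antiproliferative regulator of messenger RNA turnover, by 0.43 (adjusted p = 0.0132). Mia2, which helps load large cargo at exit sites of the endoplasmic reticulum, was lower by 0.26 without overlap, at 32.8 to 37.5 CPM in carriers and 38.9 to 46.8 CPM in non-carriers (log2 -0.26, adjusted p = 0.0129). With a choroid plexus term the log2 folds were -0.44 for Emp2, -0.46 for Tmem86a, -0.43 for Btg1 and -0.22 for Mia2. The adjusted p of these 4 genes then lay between 0.0689 for Btg1 and 0.125 for Mia2, so none was called there. When the 6 libraries of high thalamus score were left out, it was 0.0228 for Btg1, 0.0651 for Emp2, 0.134 for Tmem86a and 0.161 for Mia2. The part of choroid plexus tissue in their difference was not tested beyond that term.

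The other genes that rose outside the segment were called less firmly. Synj2, an inositol polyphosphate phosphatase and the paralog of the triplicated Synj1, had 89.4 to 105 CPM in carriers and 62.3 to 92.6 CPM in non-carriers (log2 0.32 ± 0.061 SE, adjusted p = 0.0168), and it was called in 15 of the 16 fits that left out a library. Slc36a1, a proton-coupled amino acid transporter of lysosomes, rose 1.245-fold and was called in 14 of them. Hmgcs1, the cytosolic enzyme that makes hydroxymethylglutaryl-CoA for cholesterol synthesis, had 229 to 321 CPM in carriers and 194 to 269 CPM in non-carriers (log2 0.33, adjusted p = 0.0310) and was called in 6. Selenov, a selenoprotein of low level here, was 2.77-fold higher and was called in 10.

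A pair of genes of cholinergic signalling rose together in carriers. Chrna7, the subunit of the homomeric nicotinic acetylcholine receptor, had 16.9 to 29.7 CPM in carriers and 14.2 to 21.2 CPM in non-carriers (log2 0.39 ± 0.084 SE, adjusted p = 0.0425). Lynx1, a membrane-anchored protein that binds and damps nicotinic receptors, had 360.4 to 476 CPM in carriers and 317 to 399 CPM in non-carriers (log2 0.24 ± 0.053 SE, adjusted p = 0.0456). Chrna7 was called in 6 and Lynx1 in 3 of the 16 fits, and the pair was put together after their values were seen. Kndc1, a neuronal exchange factor for Ras that acts in dendrites, rose without overlap, at 163 to 196 CPM in carriers and 120.2 to 162 CPM in non-carriers (log2 0.29, adjusted p = 0.0479), and was called in 3. Pakap had a log2 fold of 0.42 and Rnft2 of 0.28.

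C4b, the fourth component of complement, which is induced in glia of ageing and amyloid brains, ranged from 66.8 to 133 CPM in Dp16 and from 59.97 to 71.2 CPM in WT libraries. With the transgenes it ranged from 328 to 387 CPM in 5xFAD-Dp16 and from 219.9 to 373 CPM in 5xFAD libraries, so most of its spread lay between mice with and without the transgenes. The log2 fold of carriers over non-carriers was 0.44 ± 0.10 SE (adjusted p = 0.0496), 0.53 for Dp16 over WT and 0.36 for 5xFAD-Dp16 over 5xFAD. C4b was called in 4 of the 16 fits, and reads shared with its near-identical neighbour C4a make its own count uncertain. Igkv19-93, an immunoglobulin kappa variable segment, is sparse: 108 counts in 4 carrier libraries, against 4 counts in 3 non-carrier libraries, a ratio of 27.5 (10.5 to 103, counting error only). The other 4 carriers held 0 counts of it.

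The other genes that fell were lower by between 0.23 and 1.86 on the log2 scale. Rec8, a cohesin subunit best known from meiosis, had 0.321, 0.779 and 2.33 CPM in carriers, against 1.93, 3.04 and 4.71 CPM in non-carriers, with the highest carrier inside the non-carrier range (log2 -1.54 ± 0.30 SE, adjusted p = 0.0202). Prom2, a prominin of membrane protrusions in epithelia, had a log2 fold of -1.86 ± 0.40 SE (adjusted p = 0.0441), which was -1.05 with a choroid plexus term (adjusted p = 0.316). Pnrc2, a partner of the messenger RNA decapping machinery, had -0.35. Grin2c, an NMDA receptor subunit, had 38.3 to 53.8 CPM in carriers and 48.7 to 68.4 CPM in non-carriers (log2 -0.33 ± 0.073 SE, adjusted p = 0.0474) and was called in 2 of the 16 fits.

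Among regulators of transcription, Id3, which holds basic helix-loop-helix factors inactive, had a log2 fold of -0.56, and Rfx5, an activator of class II antigen presentation genes, one of -0.57. The corepressor Ctbp2 (22.4 to 28.5 CPM in carriers and 29.4 to 36.4 CPM in non-carriers) and the histone gene H3f3a (81.5 to 91.7 CPM in carriers and 97.5 to 130.5 CPM in non-carriers) were lower in all 8 carriers than in all 8 non-carriers, with log2 folds of -0.29 and -0.28. H3f3a has many processed copies that can share its reads, so its value is uncertain. Tnfrsf1a, the main receptor of tumour necrosis factor, had -0.34, Ndufa1, a subunit of complex I, had -0.23, Alg5, a glucosyltransferase of protein glycosylation, had -0.31, Fam50a had -0.37 and Ccdc107 had -0.37. Each of these 9 genes lost its call in 10 or more of the 16 fits that left out a library.

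The comparison of Dp16 with WT and that of 5xFAD-Dp16 with 5xFAD share no library, so each of the 43 genes has a value from separate mice on either background. All 43 had the same sign on both backgrounds, which the choice of genes by their average makes likely. Outside the segment, 3 genes were called in Dp16 over WT (0.0176%), namely a, Slc5a5 and Cbs, and all 3 were among the 43. In 5xFAD-Dp16 over 5xFAD, 20 were called (0.117%), 10 higher and 10 lower, and 12 of them were among the 43. Slc5a5 had a log2 fold of 0.71 without the transgenes and 0.60 with them, Cbs -0.77 and -0.66, and Tbx1 -1.995 and -1.97. Plk5 differed more, at -0.49 without the transgenes and -1.12 with them, though its interaction p of 0.0195 was not adjusted.

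**Figure D2:**
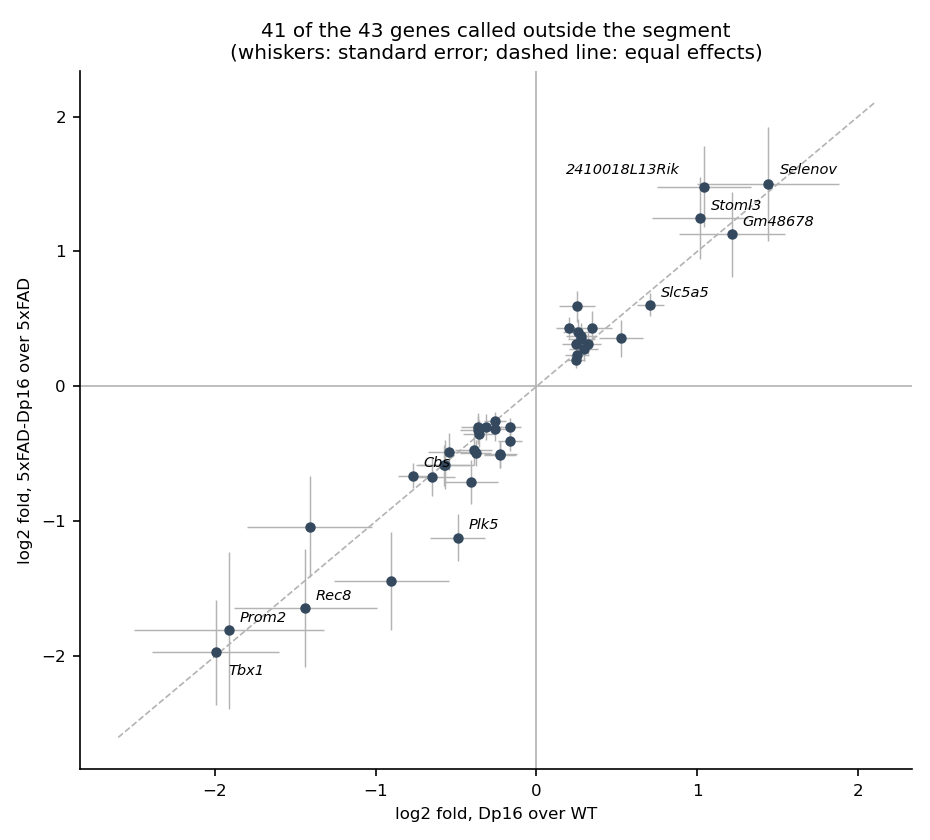
Log2 fold of Dp16 over WT (horizontal) against that of 5xFAD-Dp16 over 5xFAD (vertical) for 41 of the 43 genes called outside the segment, with whiskers of 1 standard error; a and Igkv19-93, which lie outside the axes, are left out. The points lie along the dashed line of equal effects, with Plk5 among those farther from it. The choice of genes by their average over both backgrounds makes such closeness likely.

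The test of the difference between both backgrounds called no gene out of 17132 in edgeR or DESeq2, with 1114 genes at an unadjusted p below 0.05 and a smallest adjusted p of 0.718. The duplication effect in females and in males likewise differed for no called gene in either tool, with 547 genes at an unadjusted p below 0.05. Fitted alone, the 8 female libraries gave 5 calls outside the segment and the 8 male libraries gave 1, which was a. In the segment, females gave 25 calls and males 0, although the segment median log2 fold was 0.54 in either sex. The numbers of calls thus do not measure a difference between the sexes.

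Segment genes set the scale for these effects. Of the 384 segment genes in the table, 105 passed the filter on low counts, and 99 of those had a positive log2 fold, with a median of 0.51 (1.43-fold), and all 58 called genes were higher in carriers. Genes outside the segment had a median of -0.018. Per library, a median was taken over 76 segment genes whose mean log2 CPM reached 2. It lay between 0.49 and 0.58 in carriers and between -0.059 and 0.061 in non-carriers, so every library matched its label for the duplication. App, the amyloid precursor gene, had 2791, 3056 and 3275 CPM in carriers, against 1640, 1892 and 2032 CPM in non-carriers (1.64-fold, log2 0.71 ± 0.055 SE, adjusted p = 1.53e-06). Rcan1 rose 1.61-fold, Ifnar1, a subunit of the type I interferon receptor, 1.53-fold, Ifngr2, a subunit of the interferon gamma receptor, 1.68-fold, Dyrk1a 1.52-fold and the antioxidant enzyme Sod1 1.32-fold. Gart, of purine synthesis, Cct8, of the chaperonin TRiC, and Brwd1, a chromatin reader, rose 1.54-fold, 1.51-fold and 1.53-fold.

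The interval of the fold held 1.5, the ratio of 3 copies to 2, for 83 of the 105 segment genes. For 6 it lay higher and for 16 lower. The largest rises among genes whose mean log2 CPM reached 2 were in Kcnj6, a G protein-gated potassium channel, at 1.97-fold, Synj1, a synaptic vesicle phosphatase, at 1.88-fold, and Nrip1, a nuclear receptor corepressor, at 1.82-fold. Il10rb (log2 0.24 ± 0.12 SE), Olig1 (0.21 ± 0.069) and Olig2 (0.22 ± 0.077) did not pass the test, with adjusted p of 0.320, 0.182 and 0.195. Ifnar2 had 1.37-fold (adjusted p = 0.00449). Kcne2 and Clic6, both abundant in choroid plexus, had negative log2 folds of -1.72 ± 1.16 and -1.43 ± 1.03 SE and were not called, and with a choroid plexus term these were 0.56 for Kcne2 and 0.64 for Clic6, again not called. Kcne2 spanned 0.0890 to 22.2 CPM in carriers and 0 to 44.1 CPM in non-carriers.

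Outside the segment, chromosome 16 held 412 tested genes with a median log2 fold of 1.73e-05, and 2 of them, Tbx1 and Emp2, were called (0.485%). None of the 5 nearest tested genes before the segment or of the 2 tested genes after it was called. Before it, Robo1 and Robo2, receptors of axon guidance, had log2 folds of 0.18 ± 0.086 and 0.16 ± 0.08 SE, the synaptic adhesion gene Cadm2 0.014 ± 0.081, the glycogen branching enzyme Gbe1 -0.17 ± 0.13 and the predicted gene Gm49678 0.93 ± 0.35. After it, B230307C23Rik had -0.10 ± 0.20 and A630089N07Rik 0.37 ± 0.22.

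**Figure D3:**
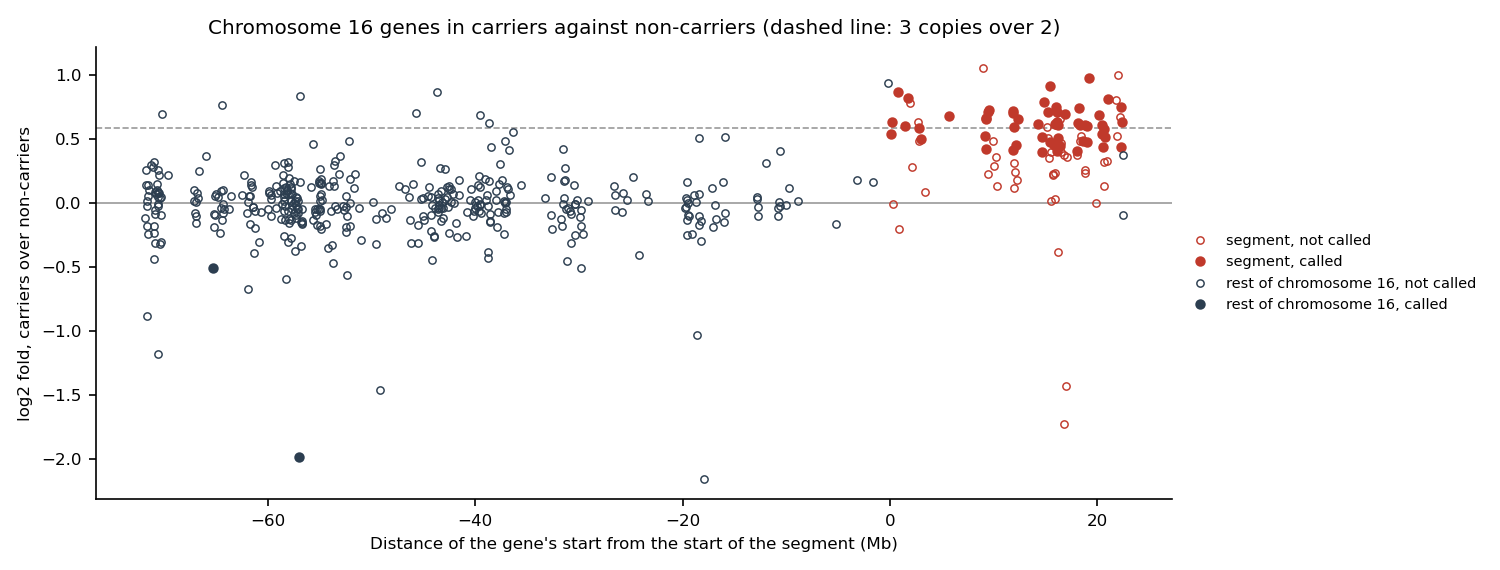
Log2 fold of carriers over non-carriers for each tested gene of chromosome 16, by distance in Mb from the start of the segment; filled points were called, and the dashed line marks 1.5-fold. Segment genes gather around a median of 0.51, while the rest of the chromosome centres on 0, with Tbx1 and Emp2 the filled points to the left.

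Content of neighbouring tissue differed between libraries and is set out before the gene groups. A score, the mean log2 CPM of a marker list with the WT mean at 0, was computed for each library. All 17 tested choroid plexus markers had a negative log2 fold, with a median of -1.94. None was called in edgeR, DESeq2 or limma, and 5 had an unadjusted p below 0.05 in edgeR. Among all genes outside the segment, 46.0% were positive and 8.79% were lower at that p. The choroid plexus score ranged from -3.83 to 0.33 in carriers and -3.72 to 1.68 in non-carriers. Its median was -3.10 in carriers and 0.023 in non-carriers, so the groups overlapped but most carriers were low. The 16 meningeal fibroblast markers were all negative too, with a median of -0.51. The thalamus score was above 0.5 in 6 libraries, 2 of the 8 carriers (Dp16 14 and 5xFAD-Dp16 1) and 4 of the 8 non-carriers (WT 4 and 5xFAD 6, 13 and 15). The median over the 20 thalamus markers was -0.21 with 18 negative, and it was 0.059 without the WT library 4 and -0.76 without the Dp16 library 14. It was 0.13 for Dp16 over WT and -0.58 for 5xFAD-Dp16 over 5xFAD, and the difference was not tested.

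**Figure D4:**
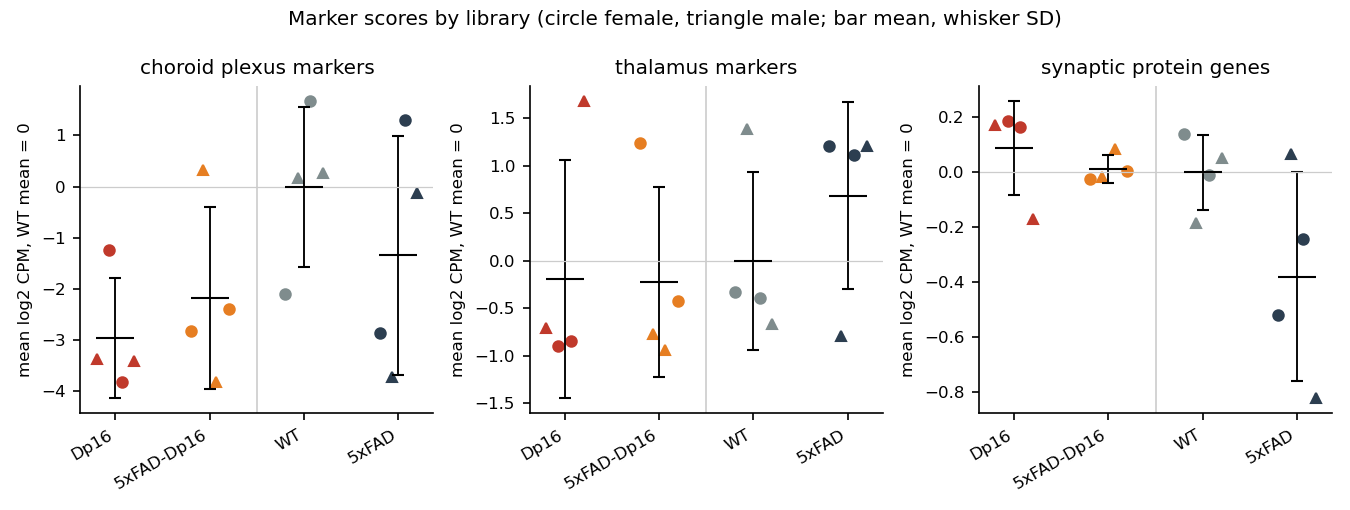
Scores of choroid plexus markers, thalamus markers and synaptic protein genes in each library, as mean log2 CPM with the WT mean at 0, carriers left of the line and non-carriers right of it. Choroid plexus scores are mostly low in carriers, 3 of the 4 5xFAD libraries are high in thalamus markers, and the lowest synaptic score is that of the 5xFAD library 15.

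Most genes of neurons had positive log2 folds. On the lists of neuronal and receptor genes, edgeR called Grin2c, an NMDA receptor subunit, and Plk5, of dentate granule cells, both lower in carriers. The cell type behind the Grin2c difference was not tested. Over all genes outside the segment, DESeq2 called 1.14% higher and 0.887% lower, limma on RPKM called 0.0705% higher and 0.223% lower, and 6.99% were higher and 8.79% lower at an unadjusted p below 0.05 in edgeR. All 35 synaptic protein genes had a positive log2 fold, with a median of 0.21, against 46.0% of all genes outside the segment, and 11 had an unadjusted p below 0.05. None was called in edgeR or by limma on RPKM, and 2 were higher by DESeq2. Nrxn3, a presynaptic adhesion molecule, had the smallest p among them, with a log2 fold of 0.30 ± 0.087 SE (adjusted p = 0.143). Excitatory neuron genes were positive in 16 of 16 with a median of 0.23, pyramidal cell genes of CA1 and CA3 in 15 of 18 with 0.34, and inhibitory neuron genes in 21 of 24 with 0.13, which was -0.013 in males alone. DESeq2 called 1 inhibitory neuron gene, higher in carriers. Glutamate receptor subunits outside the segment were positive in 16 of 18, with the called Grin2c among the negative ones. Clustered protocadherins, which give neurons a surface identity, were positive in 46 of 57 with a median of 0.13, and 5 were called higher by DESeq2. Pcdhga12 lay higher in every carrier than in any non-carrier (log2 0.43 ± 0.10 SE, adjusted p = 0.0665).

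The positive neuronal medians were smaller without the libraries of high thalamus score. The synaptic score ranged from -0.17 to 0.19 in carriers and -0.82 to 0.14 in non-carriers. Its lowest values were those of the 5xFAD libraries 15 (-0.82), 6 (-0.52) and 13 (-0.24), all of the same genotype and of high thalamus score. The highest thalamus score, 1.69, was that of the Dp16 library 14, and the lowest synaptic score of any carrier was -0.17. Whether genotype or tissue content lies behind the low synaptic scores was not tested. Without the 6 libraries of high thalamus score the synaptic median was 0.061, with 29 of 35 genes positive, and that of pyramidal cell genes was 0.13. With all libraries, the synaptic median was 0.32 for 5xFAD-Dp16 over 5xFAD and 0.10 for Dp16 over WT, and the difference was not tested. Dentate granule genes went the other way, negative in 16 of 20 with a median of -0.11 and with Plk5 the one called. The part of tissue content in these shifts was not tested further.

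Genes of the cytosolic ribosome had negative log2 folds throughout. All 50 had a negative log2 fold, with a median of -0.21, and 45 had an unadjusted p below 0.05. None was called in edgeR or limma, and 6 were lower by DESeq2. Among all genes outside the segment, 46.0% were positive, 8.79% were lower at an unadjusted p below 0.05 in edgeR, and DESeq2 called 0.887% lower. The 50 genes were measured in the same libraries and are not independent observations. Rpl18 had the smallest p of the 50, at -0.26 ± 0.061 SE (adjusted p = 0.0731). All 50 were negative as well without the 6 libraries of high thalamus score (median -0.18), with both tissue terms (-0.23), in females (-0.23) and in males (-0.18). The score ranged from -0.17 to 0.072 in carriers and -0.054 to 0.57 in non-carriers, with the highest value in the 5xFAD library 6, and the median fold was -0.10 for Dp16 over WT and -0.32 for 5xFAD-Dp16 over 5xFAD. Nuclear subunits of oxidative phosphorylation were negative in 51 of 56 with a median of -0.13, and Ndufa1 was called. Their median was 0.013 for Dp16 over WT and -0.27 for 5xFAD-Dp16 over 5xFAD. Transcripts of the mitochondrial genome were positive in 11 of 13 with a median of 0.077, but without the 6 libraries of high thalamus score in 2 of 13 with a median of -0.12. None was called in edgeR, DESeq2 or limma.

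**Figure D5:**
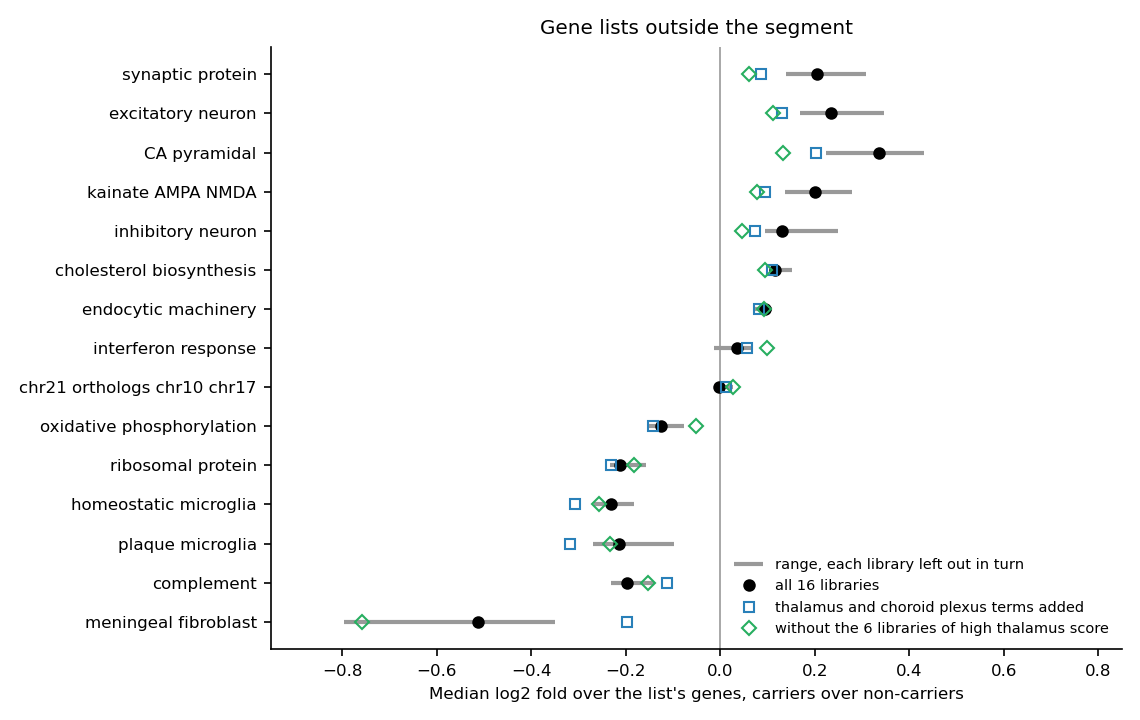
Median log2 fold of carriers over non-carriers for 15 gene lists outside the segment, with all 16 libraries (circles), with thalamus and choroid plexus terms (squares) and without the 6 libraries of high thalamus score (diamonds); grey bars span the fits that leave out each library in turn. Neuronal lists lie right of 0 and move closer to it in the diamonds, while ribosomal, microglial and complement lists lie left of 0 in all 3 settings.

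Ifnar1, Ifnar2 and Ifngr2, the triplicated receptor subunits, rose, and none of the 53 interferon response genes outside the segment was called. Of these 53, 33 had a positive and 20 a negative log2 fold, with a median of 0.036 that was -0.012 without the Dp16 library 12, and 2 were higher and 2 lower at an unadjusted p below 0.05. DESeq2 and limma each called 2 of them, both lower. By background, the list median was 0.14 without the transgenes and -0.032 with them, and the difference was not tested for the list. The smallest p was that of Zbp1, a sensor of nucleic acids, with a negative log2 fold of -1.05 ± 0.25 SE (adjusted p = 0.0731). Antigen presentation genes were negative in 16 of 23 with a median of -0.094. None was called in edgeR or limma, and 1 was lower by DESeq2. H2-T23, a nonclassical class I gene, had the smallest p (-0.37 ± 0.094 SE, adjusted p = 0.0981).

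Microglial genes mostly had negative log2 folds, and none was called in edgeR or limma. DESeq2 called 1 homeostatic gene and 4 genes of plaque-associated microglia, all lower, where it called 0.887% of all genes outside the segment lower. In edgeR, 8.79% of all genes outside the segment were lower at an unadjusted p below 0.05. Homeostatic genes were negative in 14 of 18 with a median of -0.23, 8 of them at an unadjusted p below 0.05, and the purinergic receptor P2ry12 had -0.30 ± 0.088 SE (adjusted p = 0.149). Genes of plaque-associated microglia were negative in 26 of 29 with a median of -0.21, 8 of them at an unadjusted p below 0.05. That median was 0.011 for Dp16 over WT and -0.42 for 5xFAD-Dp16 over 5xFAD, and the difference was not tested for the list. The tetraspanin Cd9 had -0.40 ± 0.091 SE (adjusted p = 0.0593). Complement genes were negative in 13 of 17 with a median of -0.20, although C4b, called in edgeR, rose. DESeq2 called 2 complement genes higher. By limma, 1 was called lower and none higher, so C4b was not called there. C3, the central complement component, had a positive log2 fold of 0.85 ± 0.22 SE (adjusted p = 0.113), and it was called together with C4b without the 6 libraries of high thalamus score (log2 1.23, adjusted p = 0.00472). Reactive astrocyte genes had a median of -0.0045, with C4b again the one called in edgeR, 2 called higher by DESeq2 and none by limma. Without the 6 libraries of high thalamus score their median was 0.11, with 16 of 27 positive, and Lcn2, a secreted iron-siderophore carrier of reactive glia, was called as well (log2 2.99, adjusted p = 0.00286, against 1.77 ± 0.48 SE with an adjusted p of 0.133 in all libraries). C3 and Lcn2 were picked out after their values were seen. The median was -0.074 for general astrocyte genes, with 2 called lower by DESeq2. Blood and lymphoid genes were positive in all 10 tested with a median of 0.57, at low levels and with none called.

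Cholesterol synthesis genes were positive in 22 of 24 with a median of 0.12, 11 of them with an unadjusted p below 0.05. Over all genes outside the segment, 46.0% were positive and 6.99% were higher at that p. Hmgcs1 was called, with 4 called higher by DESeq2 and 2 by limma, against 1.14% and 0.0705% of all genes outside the segment. The cholesterol median was 0.16 for Dp16 over WT, 0.13 for 5xFAD-Dp16 over 5xFAD and 0.094 without the libraries of high thalamus score. Partners of the triplicated endocytic genes Synj1 and Itsn1 were positive in 27 of 32 with a median of 0.095, and Synj2 was called. Without the libraries of high thalamus score that median was 0.092, with 31 of 32 positive.

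The orthologs of human chromosome 21 genes on mouse chromosomes 10 and 17, which Dp16 leaves in 2 copies, had a median of -0.0027 over 44 tested, 21 positive and 23 negative, a median whose sign changed in 23 of 31 alternatives, and Cbs was the one called. Sulfur amino acid and one-carbon genes were negative in 24 of 30 with a median of -0.038, and Cbs was again the one called. The partners of Cct8 in the chaperonin and its prefoldin cofactor were negative in 12 of 14 with a median of -0.056. Partners of Gart in purine synthesis had -0.047, antioxidant genes around Sod1 -0.091, calcineurin and NFAT genes around Rcan1 0.12, cell cycle genes tied to Dyrk1a -0.13, and potassium channel and GABA receptor genes around Kcnj6 0.09, with no gene called in these 5 lists. Cell types and processes without any call in edgeR or limma included oligodendrocyte precursors (-0.10), mature oligodendrocytes (-0.15), endothelial cells (-0.11), mural cells (-0.15), immediate early genes (0.13), heat shock (0.11), the unfolded protein response (-0.05), p53 targets (-0.079) and the circadian clock (-0.022), given as median log2 folds. DESeq2 called 1 gene each among oligodendrocyte precursor genes (lower), immediate early genes, heat shock genes, the unfolded protein response and p53 targets (higher). The mature oligodendrocyte median turned to 0.11, with 18 of 20 positive, without the 6 libraries of high thalamus score, and to 0.082 with both tissue terms. The medians of the unfolded protein response (0.021) and p53 targets (0.021) also turned positive without those 6 libraries, and that of the circadian clock changed sign in 12 of 31 alternatives.

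Single members of these lists came near the threshold without passing it. Enpp6, of newly formed oligodendrocytes, had a log2 fold of -0.82 ± 0.19 SE (adjusted p = 0.0658). Gas1, a cofactor of hedgehog signalling, had -0.46 ± 0.11 (adjusted p = 0.0731), and Slc7a10, an astrocytic carrier of serine and glycine, -0.48 ± 0.12 (adjusted p = 0.0918). Phgdh, the first enzyme of serine synthesis, had -0.23 ± 0.059 (adjusted p = 0.1004), and Cnr1, the cannabinoid receptor of interneuron terminals, 0.56 ± 0.15 (adjusted p = 0.131).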

How the data were processed

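Hippocampal polyA RNA was sequenced, per the labels, from 16 strand-specific libraries read as 150 bp pairs. HISAT2 2.1.0 and HTSeq 0.6.1 are among the tools, and GRCm38 is the build, per the submitters' processing notes. How strand and multiply mapped reads were handled in counting is not given in the sources used here. The authors deposited raw read counts per gene for 55385 genes, with 16922937 to 25308693 counts per library, and RPKM values (counts scaled by the authors to gene length and library total), which served 1 alternative. The number of libraries and their depth limit precision, and p-values measure the spread between these samples, taken from the design text as separate mice.

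Counts were fitted with edgeR 4.0.16 in R 4.3.3: filterByExpr over the 4 groups with a minimum count of 10 (17132 genes kept), TMM factors (0.944 to 1.13) and a robust quasi-likelihood model with terms for duplication, transgenes and sex. P-values were adjusted by Benjamini-Hochberg over all 17132 genes, and 0.05 was the threshold. The effect in either background and their difference came from a fit of 4 groups and sex. Positions are from GENCODE M21 on GRCm38 (55144 of 55385 genes placed), and the segment spans chromosome 16 from 75540514 to 97962622. The fits were tested on simulated data, where 36% of 1.3-fold, 48% of 1.5-fold, 82% of 2-fold and 98% of 4-fold changes were recovered. Many changes of 1.5-fold or less can thus go uncalled. Of 136 calls in the simulated data, 4 were false. Genes were simulated independently of each other and without differences in tissue content or transgenes, so that share may not hold in these data. Alternatives used DESeq2 1.42.0, limma 3.58.1 on log2(RPKM + 0.1), other filters and terms, and fewer libraries. Promoter windows are from RefSeq (GRCm38.p6).

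The libraries and gene lists were chosen with earlier results of these data known. Named genes were the 12 of smallest p called outside the segment in each direction, up to 3 called members of a list or else its gene of smallest p, the tested genes nearest the segment, and segment genes of smallest p, extreme fold or known role. Genes beyond these (C3, Lcn2, Lynx1, Kndc1, Igkv19-93, Ctbp2, H3f3a, Tnfrsf1a, Fam50a, Alg5, Prom2, Rfx5, Id3 and predicted genes) were added after their values were seen.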

Additional observations from a re-analysis of the deposited data

Results flagged for a closer look

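Within a genotype group of 4 libraries, a library was marked when its gap to its nearest neighbour as a share of the group's range passed Dixon's critical value for 4 values. Of 188 groups of values looked at (43 genes called outside the segment, 3 tissue scores and the segment median, in 4 groups each), 14 were marked, and chance alone marks about 1 in 20.

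The thalamus score was marked once each in Dp16, WT and 5xFAD. The Dp16 library 14 stood at 1.69, against -0.90 to -0.71 in the other Dp16 libraries (gap of 0.928 of the range). The WT library 4 stood at 1.39, against -0.66 to -0.33 in the other WT libraries (0.839). The 5xFAD library 10 stood low at -0.80, against 1.12 to 1.21 in the other 5xFAD libraries (0.955).

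Among genes, values are log2(CPM + 0.1). In carriers, 2410018L13Rik was highest in the Dp16 library 3, at 1.34, with the others at 0.52 to 0.63 (0.871). Fam50a was highest in the Dp16 library 14, at 4.12, with the others at 3.88 to 3.90 (0.905), and lowest in the 5xFAD-Dp16 library 8, at 3.89, with the others at 4.10 to 4.13 (0.882). Tnfrsf1a was highest in the 5xFAD-Dp16 library 1, at 4.95, with the others at 4.54 to 4.57 (0.921).

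In 5xFAD libraries, Chrna7 was highest in library 10, at 4.15, with the others at 3.83 to 3.87 (0.877), and Rec8 in library 15, at 2.27, with the others at 1.59 to 1.66 (0.895). Ctbp2 was highest in the 5xFAD library 13, at 5.16, with the others at 4.90 to 4.91 (0.962), and Ndufa1 in the 5xFAD library 6, at 6.18, with the others at 6.05 to 6.07 (0.834). In WT, Id3 was lowest in library 2, at 4.18, with the others at 4.59 to 4.65 (0.859). For a in WT and for Igkv19-93 in 5xFAD, 1 library held the few counts and the other libraries held 0, which gives a gap of 1.000 of the range by construction.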

How the results depend on the processing

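None of the 56 called genes recomputed under each alternative changed sign in any of the 31 alternatives. Of 51 such genes that were not called, 7 did (Mbp, Otx2, Gbe1, Cadm2, B230307C23Rik, Kcne2 and Clic6), and so did the medians of 17 of the 48 gene lists. The called genes were picked by the main fit, and the alternatives reuse the same libraries, which makes a constant sign of called genes likely. Against 19 genes called higher and 24 called lower outside the segment, 15 were lower with DESeq2 size factors, 194 higher and 151 lower by the DESeq2 Wald test (412 calls in all), 12 higher and 38 lower with limma on RPKM, and 555 higher and 746 lower without a low-count filter (1375 in all). A choroid plexus term left 6 higher and 7 lower (59 in all), and thalamus and choroid plexus terms together, added after seeing the data, left 8 and 13. Females alone gave 4 and 1 (30 in all, 25 in the segment), and males alone 1 and 0 (1 in all, 0 in the segment). Of the 43 genes, 42 were called by DESeq2, 28 by limma, 40 without a filter, 31 with a thalamus term, 8 with a choroid plexus term, 12 with both terms and 14 without the 6 libraries of high thalamus score, where 32 other genes were called outside the segment. The cause of these moves was not tested. The segment median of 0.51 was 0.43 with limma, 0.55 with a choroid plexus term and 0.57 with both terms. DESeq2 called 74 genes for Dp16 over WT, against 39 in edgeR, and 720 for 5xFAD-Dp16 over 5xFAD, against 52.

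Leaving out each library in turn gave 72 to 183 calls in all, 8 to 64 higher and 10 to 70 lower outside the segment, 51 to 59 in the segment, a segment median of 0.50 to 0.54, 28 to 44 calls for Dp16 over WT and 32 to 2045 for 5xFAD-Dp16 over 5xFAD. Calls in all were most without the Dp16 library 14 and fewest without the Dp16 library 12. The 2045 calls came without the 5xFAD library 10, the one 5xFAD library of low thalamus score, which leaves 3 5xFAD libraries that are all high. No gene was called for the difference between backgrounds in any of these fits. No paired analysis was possible because each library has a replicate number of its own in its title, so no number is shared between groups.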

Other observations

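Coat colour genes beside agouti were looked at because agouti stood so far apart. Of 7 tested members of that list, agouti was the one called, 4 had a positive and 3 a negative log2 fold, and the list median was 0.10, but -0.058 in females alone. Markers of the striatum, another neighbouring tissue, were negative in 13 of 15 with a median of -0.22, with none called in edgeR or limma and 1 lower by DESeq2. Ppp1r1b, a dopamine-regulated phosphatase inhibitor of striatal neurons, had a log2 fold of -0.58 ± 0.15 SE (adjusted p = 0.109). Ependymal genes, of the ciliated lining of the ventricles, were positive in 7 of 12 with a median of 0.068 that was -0.13 without the 5xFAD-Dp16 library 8, although choroid plexus genes of the same cavities were negative in all 17.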
